A study of Arabidopsis thaliana with 36 samples.

Results

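Stress zinc-finger genes of the ZAT type, 6 in number, were followed through a gamma irradiation time course of Arabidopsis thaliana rosettes. They were ZAT10 (AT1G27730, also STZ), ZAT12 (AT5G59820, also RHL41), ZAT6 (AT5G04340), ZAT11 (AT2G37430), AZF2 (AT3G19580, also ZF2) and AZF1 (AT5G67450, also ZF1). They were chosen by locus as the stress zinc-finger factors of this family, with earlier results of these data known. They are 6 of the 33977 genes in the expression table. Plants of the Col-0 ecotype, grown in soil under short days, were placed in a 137Cs irradiator at 4 weeks and received 10 cGy, 100 cGy or, as mock plants, no exposure. Whole rosettes were sampled 1, 3, 24 and 72 h later, which gives 12 groups of 3 libraries, 36 in all. All groups were of the same ecotype, tissue and age at exposure, and no group carried a mutation or transgene. The comparison of each dose with mock plants at the same time asks how rosette transcripts respond to low doses of ionizing radiation. The time of day of sampling and the handling of mock plants are not given in the sources used here, so their part in differences between groups or times was not tested. Nothing in the labels tells if replicates of a group came from different plants or from different exposures. The p-values below therefore measure only the spread between these libraries, which may be technical.

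These proteins are nuclear C2H2 transcription factors with a pair of zinc fingers. Each finger holds a helix with a short stretch that is found in plant zinc fingers of this kind, and most members also carry a repressor motif through which they lower the activity of target promoters. In leaves their transcripts are known for rapid, short-lived induction by wounding, cold, salt, strong light, reactive oxygen and abscisic acid, and ZAT12 and ZAT10 are widely used as reporters of reactive oxygen signals.

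The coding sequence of the first finger shows what the family shares and where members differ. Each stretch below runs over 63 bases from the first cysteine codon to the last histidine codon, in the coding direction, from the RefSeq TAIR10.1 assembly. The capitals mark the 18 bases that code for the conserved plant helix. ZAT10 lies at chr1:9648680-9648742 on the minus strand, ZAT12 at chr5:24103193-24103255 on the plus strand and ZAT6 at chr5:1216705-1216767 on the minus strand. ZAT11 lies at chr2:15706598-15706660 on the plus strand, AZF2 at chr3:6803731-6803793 on the minus strand and AZF1 at chr5:26919523-26919585 on the minus strand.
ZAT10: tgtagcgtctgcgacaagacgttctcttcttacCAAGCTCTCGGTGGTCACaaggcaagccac
ZAT12: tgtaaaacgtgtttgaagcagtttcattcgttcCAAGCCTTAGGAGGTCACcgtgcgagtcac
ZAT6: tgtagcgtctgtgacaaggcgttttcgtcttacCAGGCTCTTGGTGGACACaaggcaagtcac
ZAT11: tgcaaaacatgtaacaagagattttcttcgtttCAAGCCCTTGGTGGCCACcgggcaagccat
AZF2: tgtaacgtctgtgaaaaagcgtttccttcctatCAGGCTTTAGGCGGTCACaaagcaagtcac
AZF1: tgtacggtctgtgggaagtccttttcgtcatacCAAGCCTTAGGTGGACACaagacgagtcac
Of the 18 capital positions 12 were the same in all 6 genes, and over the whole finger 29 of 63 positions were. The closest pair was ZAT10 and ZAT6 with 87.3% identical bases, and the most distant pairs, among them ZAT10 and ZAT12, had 60.3%. All 6 genes have a single exon in the RefSeq annotation and 2 fingers that each code for the conserved helix.

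Upstream sequence is shown for ZAT10 and ZAT12, the members with the widest swings in level, and for AZF1, whose groups fell in another order. Each run covers the 250 bases before the annotated gene start in TAIR10.1, in the direction of transcription. It is chr1:9649324-9649573 on the minus strand for ZAT10, chr5:24102564-24102813 on the plus strand for ZAT12 and chr5:26920180-26920429 on the minus strand for AZF1. The capitals mark matches on either strand to the W-box core TTGAC, the abscisic acid element core ACGTG, the GCC box GCCGCC and the heat shock element core GAANNTTC.
ZAT10 promoter: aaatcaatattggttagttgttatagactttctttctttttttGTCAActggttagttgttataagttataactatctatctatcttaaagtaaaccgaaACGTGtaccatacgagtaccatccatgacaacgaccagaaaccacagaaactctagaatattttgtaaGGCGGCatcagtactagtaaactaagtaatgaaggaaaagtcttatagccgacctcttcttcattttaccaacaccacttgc
ZAT12 promoter: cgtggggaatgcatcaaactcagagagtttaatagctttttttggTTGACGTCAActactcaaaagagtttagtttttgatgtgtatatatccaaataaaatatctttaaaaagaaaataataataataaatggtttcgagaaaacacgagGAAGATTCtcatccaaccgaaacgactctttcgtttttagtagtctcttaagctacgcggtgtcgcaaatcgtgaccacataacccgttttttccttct
AZF1 promoter: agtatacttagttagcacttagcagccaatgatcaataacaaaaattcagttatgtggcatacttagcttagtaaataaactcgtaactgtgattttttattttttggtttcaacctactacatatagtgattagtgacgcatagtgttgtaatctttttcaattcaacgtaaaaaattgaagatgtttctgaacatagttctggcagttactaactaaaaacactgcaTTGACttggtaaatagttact
ZAT12 held 2 W-box cores next to each other on opposite strands, at positions -205 to -196 relative to the gene start, and the heat shock core at -99 to -92. ZAT10 held 1 W-box core, 1 abscisic acid core and 1 GCC box, and AZF1 only 1 W-box core, at -21 to -17. Over the 6 genes, 5 held a W-box core, as did 44.9% of the 27443 promoter windows of the same length. The GCC box was in 2 members (ZAT10 and ZAT6) and in 1.87% of all windows, the heat shock core in 3 members and in 9.55%, and the abscisic acid core in 1 member and in 22.9%. The rapid stress response element CGCGTT, searched on both strands, was in none of the 6 and in 2.59% of all windows. The W-box core and the other motifs did not overlap in these genes, and a match describes letters only.

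Levels are given in CPM, counts scaled to a total of 1000000 per library. The libraries held about 22100000 to 36700000 counts, worked out from the smallest step between values, with a median of 31300000. In these libraries 3 counts, the smallest level treated as detected, correspond to 0.0818 to 0.136 CPM, and such limits cover counting error only. Rosette markers were high in every library, with RBCS1A, a small subunit of Rubisco, at 11200 to 15000 CPM and RCA, Rubisco activase, at 7330 to 14600 CPM. Root and flower markers were low, apart from PYK10, a beta-glucosidase gene, at 44.5 to 149 CPM. RHD6 was 0 in all libraries and AP1 at most 0.0323 CPM. Others passed the level of 3 counts in some libraries. WOX5 reached 0.734 CPM, NRT2:1 0.733, AG 0.703, SEP3 0.226 and LFY 0.223. PYK10, the 1 root marker of 5 that was tested, also moved between groups. At 1 h it averaged 50.5 ± 4.91 CPM after 10 cGy and 82.1 ± 2.26 CPM in mock plants (SD, n = 3 each), a difference of -0.70 (adjusted p = 0.00966, limma). At 3 h it averaged 113 ± 7.14 CPM after 10 cGy and 67.4 ± 15.1 CPM in mock plants (0.77, adjusted p = 0.0462), and the effect at 3 h minus that at 1 h was 1.46 (adjusted p = 0.000523). In mock plants it was lower at 72 h than at 24 h by a difference of -0.69 (adjusted p = 0.00575). The part of this in the results on the members was not tested. One library stood apart: replicate 1 of 10 cGy at 3 h had 0.608% of its counts in chloroplast genes, where the next highest library had 0.331%. All 6 genes passed the filter of 1 CPM in at least 3 libraries, and 18875 genes did so in total. ZAT11 passed through exactly 3 libraries, all irradiated and taken at 1 or 3 h, so its pass rests wholly on groups where it was high. AZF1 passed through 11 libraries, 2 of them from mock plants, so it would not have passed on mock libraries alone. ZAT11 reached 3 counts in 25 of 36 libraries, and each of the other 5 genes did so in all 36.

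Compared per kilobase of transcript, ZAT12, ZAT10 and ZAT6 were the most abundant members, and their order depended on the summary. By the mean level over the 36 libraries ZAT12 came first, with 4.88 CPM per kilobase, before ZAT10 with 4.38 and ZAT6 with 3.85. By the median ZAT6 came first, with 4.07 CPM per kilobase, before ZAT10 with 3.94 and ZAT12 with 3.01. AZF2 had a mean of 2.07 CPM per kilobase, and AZF1 and ZAT11 were the least abundant by both, with means of 0.62 and 0.405 CPM per kilobase. The SD between replicates on the log2(CPM + 0.5) scale was 1.0 for ZAT12, 0.667 for ZAT10, 0.54 for AZF2, 0.486 for ZAT11, 0.469 for ZAT6 and 0.312 for AZF1, against a median of 0.127 over all genes tested. The SD of ZAT12 was above that of 98.5% of tested genes of like level, that of ZAT10 above 96.9%, ZAT6 above 95.1% and AZF2 above 93.6%. That of ZAT11 was above 58.7% and that of AZF1 above 68.1%.

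**Figure D1:**
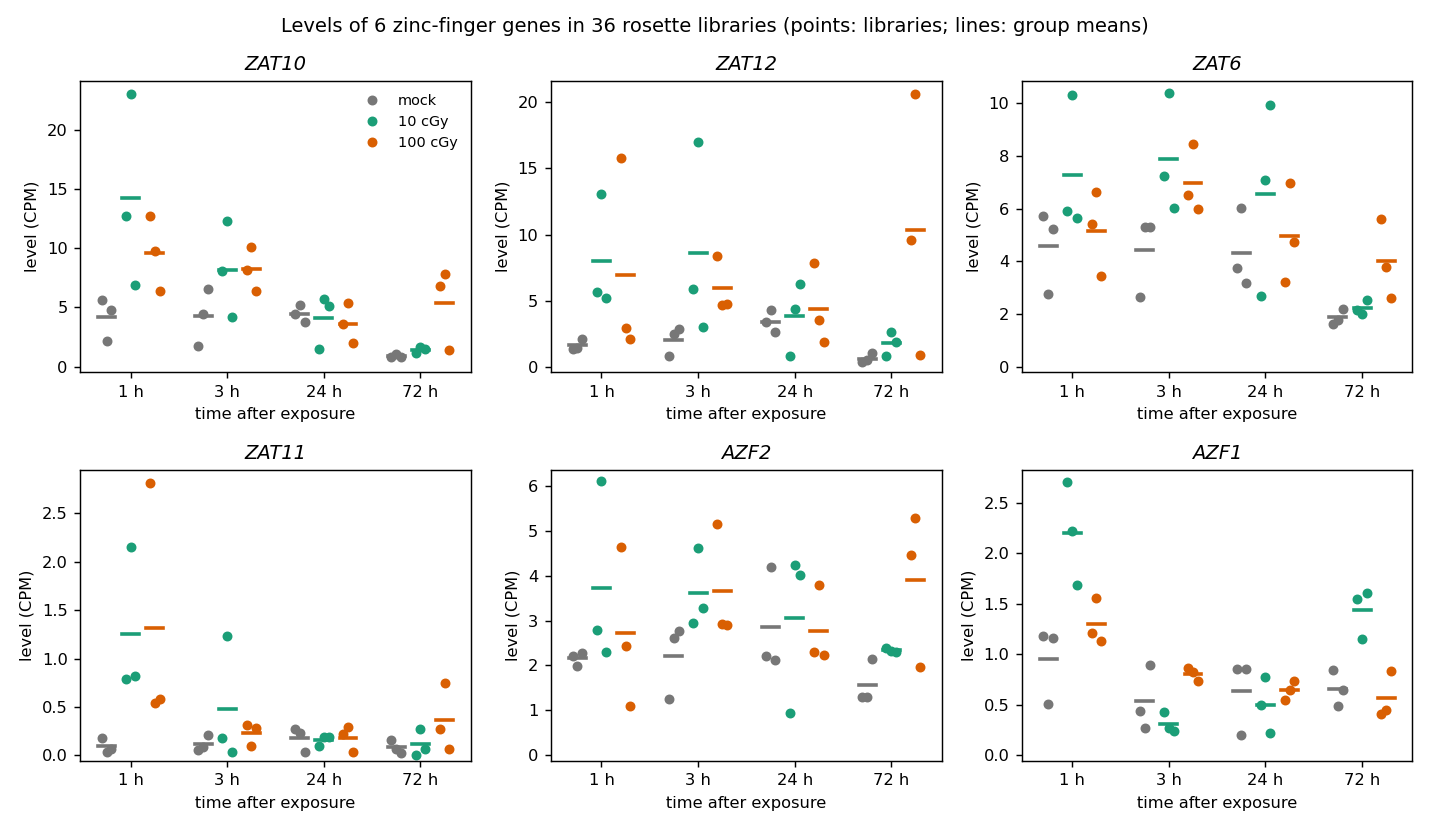
Level in CPM (vertical axis, a scale for each gene) of the 6 zinc-finger genes in each of 36 libraries by time after exposure (horizontal axis), with mock, 10 cGy and 100 cGy side by side. Points are libraries and lines are the means of 3, and ZAT12 reached 20.6 CPM in 1 library of 100 cGy at 72 h while another library of that group had 0.862 CPM.

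One hour after 10 cGy, ZAT10, ZAT11 and AZF1 were higher than in mock plants, and ZAT12 had the greatest fitted difference of the 6 without passing the test. After 100 cGy at the same time only ZAT11 passed the test. ZAT11 had passed the filter only through irradiated libraries, and AZF1 would not have passed on mock libraries alone. All 6 estimates were above 0 at both doses. In these bulk samples more cells of a type and more RNA per cell cannot be told apart.

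ZAT10, a repressor known from salt and strong light responses, had 5.63, 2.13 and 4.81 CPM in mock libraries, 12.7, 23.0 and 6.92 CPM after 10 cGy, and 12.7, 9.77 and 6.41 CPM after 100 cGy. Every irradiated library lay above every mock library, by little for replicate 3 of each dose. The fitted difference was 1.58 ± 0.51 (SE, log2(CPM + 0.5), n = 3 against 3) for 10 cGy, with an adjusted p of 0.0211 in limma, and 1.15 ± 0.51 with an adjusted p of 0.124 for 100 cGy. The 10 cGy call ended without mock replicate 2, the lowest mock library (adjusted p = 0.135), and without 10 cGy replicate 2, the highest irradiated one (0.142).

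ZAT11, known from reactive oxygen and programmed cell death responses, was near the detection limit in mock plants at 0.182, 0.0301 and 0.0702 CPM. It had 0.785, 2.15 and 0.822 CPM after 10 cGy and 2.81, 0.543 and 0.58 CPM after 100 cGy. No irradiated library overlapped with the mock range, and 2 of the 6 were far above the other 4. The difference was 1.48 ± 0.38 for 10 cGy (adjusted p = 0.00458) and 1.39 ± 0.38 for 100 cGy (adjusted p = 0.0101) in limma. ZAT11 passed the filter only through irradiated libraries, so these values are given as a description. Because the mock level is so low, the size depends on the value added before the logarithm. It ranged from 0.99 to 2.73 for 10 cGy over the alternatives tried, with the extremes at an added 1 and 0.1 CPM. Without 10 cGy replicate 2 the adjusted p was 0.0503, and without 100 cGy replicate 1 the 100 cGy difference was 0.85 with an adjusted p of 0.147.

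AZF1, a zinc-finger gene known from salt and abscisic acid responses, had 1.18, 0.511 and 1.16 CPM in mock libraries, 2.7, 2.22 and 1.68 CPM after 10 cGy, and 1.21, 1.56 and 1.13 CPM after 100 cGy. The 10 cGy libraries were all above both other groups, while 100 cGy and mock overlapped. The 10 cGy difference was 0.92 ± 0.25 (adjusted p = 0.00753, limma), and 0.68 with an adjusted p of 0.0809 without mock replicate 2. AZF1 would not have passed the filter on mock libraries alone, so these values are given as a description. For 100 cGy the difference was 0.34 ± 0.25 (adjusted p = 0.414).

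ZAT12, which is needed for the response to hydrogen peroxide and strong light, had 1.36, 1.38 and 2.07 CPM in mock libraries, 5.66, 13.1 and 5.21 CPM after 10 cGy, and 15.8, 2.9 and 2.09 CPM after 100 cGy. All irradiated libraries lay above the mock range, but replicate 3 of 100 cGy did so by only a small margin. The difference of 1.91 ± 0.76 for 10 cGy had an adjusted p of 0.0637 in limma, and that of 1.33 ± 0.76 for 100 cGy one of 0.257. With only the 9 libraries of this time in the fit, the 10 cGy value had an adjusted p of 0.035. It was called under none of the other alternatives, where the adjusted p in limma reached 0.226.

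ZAT6, known from phosphate, cadmium and cold responses, had 5.72, 2.74 and 5.23 CPM in mock libraries, 5.9, 10.3 and 5.65 CPM after 10 cGy, and 5.4, 6.62 and 3.45 CPM after 100 cGy. AZF2, known from salt and abscisic acid responses, had 2.21, 1.98 and 2.28 CPM in mock libraries, 2.8, 6.1 and 2.3 CPM after 10 cGy, and 4.63, 2.43 and 1.1 CPM after 100 cGy. For both genes most libraries of the 3 treatments had like levels, with replicate 2 of 10 cGy the highest in each. Neither passed the test, with differences of 0.63 ± 0.36 for ZAT6 and 0.57 ± 0.41 for AZF2 after 10 cGy.

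Read against all tested genes, 3 of the 6 members were called higher after 10 cGy at 1 h, where 13.6% of all tested genes were. After 100 cGy it was 1 of 6, where 10.3% of all genes were called higher. Both counts include ZAT11, which passed the filter only through irradiated libraries, and are given as a description. The 10 cGy count also includes AZF1, which would not have passed on mock libraries alone. The members were also chosen with earlier results of these data known. The median member difference was 1.2 for 10 cGy and 0.75 for 100 cGy, beside medians over all tested genes of -0.01 and 0.02 (log2(CPM + 0.5) scale). Irradiated libraries lay wholly above mock libraries for 5 of 6 members after 10 cGy and 3 of 6 after 100 cGy, as they did for 22.2% and 21.7% of all tested genes. Both doses are set against the same mock libraries. Set against each other, 100 cGy minus 10 cGy gave no called member at 1 h, with differences from -0.58 to -0.09 and 1 of 6 with an unadjusted p under 0.05 in limma, where 0.726% of all genes were called.

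**Figure D2:**
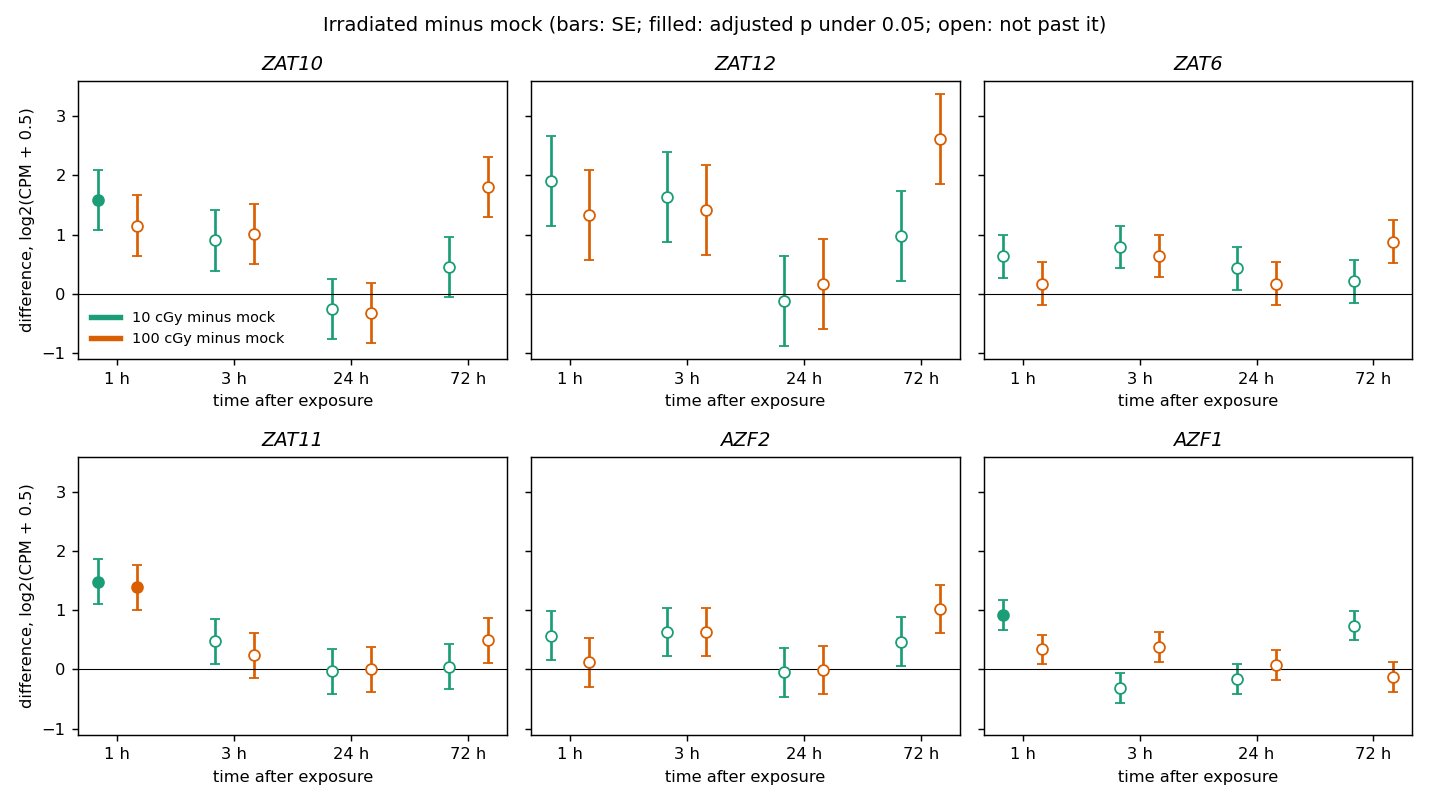
Difference of irradiated from mock libraries on the log2(CPM + 0.5) scale (vertical axis) for each gene at 1, 3, 24 and 72 h (horizontal axis), with 10 cGy and 100 cGy in separate colours and SE bars. Filled points passed an adjusted p of 0.05, which was the case for 3 members after 10 cGy and 1 after 100 cGy, all at 1 h. ZAT11, filled at both doses, passed the filter only through irradiated libraries. AZF1, filled after 10 cGy at 1 h, would not have passed on mock libraries alone.

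At 3 h no member passed the test at either dose, although most estimates were still above 0. ZAT12 had 0.79, 2.46 and 2.86 CPM in mock libraries, 5.85, 17.0 and 3.01 CPM after 10 cGy, and 8.41, 4.65 and 4.72 CPM after 100 cGy. Neither dose overlapped with mock, and the differences were 1.64 ± 0.76 (adjusted p = 0.274) for 10 cGy and 1.41 ± 0.76 (adjusted p = 0.219) for 100 cGy in limma. ZAT6 had 2.66, 5.31 and 5.3 CPM in mock libraries, 7.22, 10.4 and 6.02 CPM after 10 cGy, and 6.51, 8.45 and 6.0 CPM after 100 cGy, again without overlap. AZF2 had 1.26, 2.61 and 2.77 CPM in mock libraries, 2.94, 4.62 and 3.28 CPM after 10 cGy, and 5.15, 2.93 and 2.9 CPM after 100 cGy, so its groups were also apart. ZAT10 had 1.76, 4.46 and 6.52 CPM in mock libraries, 8.04, 12.3 and 4.2 CPM after 10 cGy, and 8.18, 10.1 and 6.38 CPM after 100 cGy, and its groups overlapped. ZAT11 had its highest level of this time, 1.23 CPM, in replicate 2 of 10 cGy, the library that was also highest for ZAT12, ZAT6 and ZAT10.

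Per comparison at 3 h, 0 of 6 members were called in limma after 10 cGy, with 2 at an unadjusted p under 0.05, where 1.49% of all tested genes were called. After 100 cGy it was 0 of 6, with 0 at an unadjusted p under 0.05, where 12.4% of all genes were called. The median member difference was 0.71 and 0.64 at the lower and higher dose, beside medians over all genes of -0.03 and 0.09. At each dose 3 members lay wholly above mock, as did 7.22% of all genes after 10 cGy and 22.2% after 100 cGy. The count after 10 cGy was also 0 without replicate 1 of that group, the library with the high chloroplast share. Between the doses 0 of 6 members were called, 1 of them with an unadjusted p under 0.05 in limma, where 12.6% of all genes were called.

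AZF1 had another order of groups at 3 h, with 0.439, 0.273 and 0.894 CPM in mock libraries, 0.425, 0.27 and 0.239 CPM after 10 cGy, and 0.859, 0.829 and 0.734 CPM after 100 cGy. The 100 cGy libraries were all above the 10 cGy libraries and inside the mock range. Of the 10 cGy libraries 1 lay below the mock range, 1 at its lower edge (0.27 against 0.273 CPM) and 1 inside it. Its effect of 10 cGy was lower at 3 h than at 1 h by an interaction term of -1.23 ± 0.36 (adjusted p = 0.018, limma), from 0.92 at 1 h and -0.31 at 3 h. AZF1 would not have passed the filter on mock libraries alone, so this term is given as a description. In this comparison of 3 h with 1 h, 8.78% of all tested genes were called lower. None of the other members was called in it. In the other 5 comparisons of an effect between neighbouring times 0 of 6 members were called in limma, with 0 to 2 at an unadjusted p under 0.05. For 10 cGy, 2.7% of all genes were called between 3 and 24 h and 0% between 24 and 72 h, and for 100 cGy 11.4% between 1 and 3 h, 2.89% between 3 and 24 h and 0.0053% between 24 and 72 h. The adjusted p was 0.0744 without mock 1 h replicate 2, 0.0537 without 10 cGy 1 h replicate 1 and 0.0691 without mock 3 h replicate 3. Without 10 cGy 3 h replicate 1 the term was -1.33 with an adjusted p of 0.0198. The difference of 100 cGy from 10 cGy at 3 h was 0.69 (adjusted p = 0.0664).

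At 24 h the estimates lay on both sides of 0 at both doses, from -0.26 to 0.43 after 10 cGy and from -0.33 to 0.17 after 100 cGy. ZAT12 had 3.35, 4.26 and 2.59 CPM in mock libraries, 0.841, 4.33 and 6.22 CPM after 10 cGy, and 7.85, 3.5 and 1.85 CPM after 100 cGy. ZAT10 had 4.42, 5.18 and 3.73 CPM in mock libraries, 1.49, 5.72 and 5.09 CPM after 10 cGy, and 3.58, 5.35 and 1.99 CPM after 100 cGy. In both genes irradiated libraries lay above and below the mock range. None of the 6 was called in limma at either dose, also at an unadjusted p under 0.05 (0 and 0), where 3.29% of all tested genes were called after 10 cGy and 0.599% after 100 cGy. No member lay wholly above mock at either dose, where 15.3% and 6.72% of all genes did. The wide spread leaves room for differences of either sign: the SE was 0.76 for ZAT12 and 0.51 for ZAT10. Between the doses 0 of 6 were called, again with 0 at an unadjusted p under 0.05, where 1.13% of all genes were.

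At 72 h, replicates 1 and 2 of 100 cGy had high ZAT12, ZAT10 and AZF2, and replicate 3 did not. ZAT12 had 0.323, 0.485 and 1.04 CPM in mock libraries, 0.804, 2.65 and 1.86 CPM after 10 cGy, and 9.57, 20.6 and 0.862 CPM after 100 cGy. Replicate 3 of 100 cGy was inside the mock range, and the other 2 were far above every mock and 10 cGy library. The difference of 2.62 ± 0.76 for 100 cGy was the greatest of any member and time, with an adjusted p of 0.0692 in limma. ZAT10 had 0.84, 1.03 and 0.846 CPM in mock libraries, 1.13, 1.66 and 1.49 CPM after 10 cGy, and 6.79, 7.85 and 1.42 CPM after 100 cGy. Both doses lay above mock, and replicate 3 of 100 cGy was at the level of 10 cGy. The ZAT10 difference was 1.80 ± 0.51 for 100 cGy (adjusted p = 0.0631). Mock plants averaged 0.907 CPM of ZAT10 at 72 h and 4.44 CPM at 24 h. Plants given 100 cGy averaged 5.35 CPM at 72 h and 3.64 CPM at 24 h. Without replicate 3 of 100 cGy at 72 h the difference was 3.76 for ZAT12 (adjusted p = 0.00258) and 2.47 for ZAT10 (adjusted p = 0.00409). Of the 13 alternatives this was the only one under which either gene was called. Under the others the adjusted p in limma reached 0.317 for ZAT12 and 0.324 for ZAT10.

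AZF2 had 1.29, 1.29 and 2.14 CPM in mock libraries, 2.38, 2.33 and 2.3 CPM after 10 cGy, and 4.47, 5.29 and 1.97 CPM after 100 cGy at 72 h. ZAT6 had 1.62, 1.78 and 2.2 CPM in mock libraries, 2.14, 2.01 and 2.51 CPM after 10 cGy, and 5.62, 3.79 and 2.59 CPM after 100 cGy. Replicate 3 was the lowest of the 100 cGy libraries in both genes. The 100 cGy differences were 1.02 ± 0.41 for AZF2 (adjusted p = 0.183) and 0.88 ± 0.36 for ZAT6 (adjusted p = 0.186). AZF1 showed another order, with 0.84, 0.485 and 0.649 CPM in mock libraries, 1.55, 1.15 and 1.61 CPM after 10 cGy, and 0.409, 0.451 and 0.831 CPM after 100 cGy. Its 10 cGy libraries were all above the other 6. The difference was 0.74 ± 0.25 for 10 cGy (adjusted p = 0.0612) and -0.13 for 100 cGy (adjusted p = 0.834).

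No member was called at 72 h in limma: 0 of 6 after 10 cGy, with 1 at an unadjusted p under 0.05, and 0 of 6 after 100 cGy, with 4. Of all tested genes 9.38% were called after 10 cGy and 1.58% after 100 cGy. The median member difference was 0.46 and 0.95 at the lower and higher dose, beside medians over all genes of 0.03 and 0.04. Irradiated libraries lay wholly above mock for 3 members after 10 cGy, as for 17.2% of all genes, and for 2 members after 100 cGy, as for 12.3%. The direct comparison of 100 cGy with 10 cGy gave 0 called members, with 3 at an unadjusted p under 0.05, where 0% of all tested genes were called. That count was 3 without replicate 3 of 100 cGy.

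In unexposed plants ZAT10 and ZAT6 were lower at 72 h than at 1 h and 24 h. ZAT10 averaged 0.907 ± 0.111 CPM in mock plants at 72 h and 4.19 ± 1.83 CPM at 1 h (SD, n = 3 each), a difference of -1.65 ± 0.51 (adjusted p = 0.0124, limma). Against the 4.44 ± 0.726 CPM of 24 h the difference was -1.80 ± 0.51 (adjusted p = 0.00474), a call that held in all 12 alternatives. ZAT6 averaged 1.86 ± 0.301 CPM at 72 h and 4.56 ± 1.6 CPM at 1 h, a difference of -1.05 ± 0.36 (adjusted p = 0.0237), and -0.99 ± 0.36 against 24 h (adjusted p = 0.0262). ZAT12 averaged 0.617 ± 0.378 CPM at 72 h and 3.4 ± 0.836 CPM at 24 h, with no overlap and a difference of -1.83 ± 0.76 (adjusted p = 0.0513). The ZAT12 value passed under 3 of 12 alternatives, the lowest adjusted p being 0.0255 with 0.1 CPM added before the logarithm. The highest adjusted p over these alternatives was 0.137. In each comparison 2 of 6 members were called lower, where 14.9% of all tested genes were lower at 72 h than at 1 h and 20.7% than at 24 h, and 3 members lay wholly below, as did 20.6% and 23.6% of all genes.

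Single libraries mattered for several of these calls in mock plants. The ZAT10 call against 1 h ended without mock 1 h replicate 1 (adjusted p = 0.0651). The ZAT6 call against 1 h ended without mock 1 h replicate 1 (0.109) or 3 (0.0876) or mock 72 h replicate 1 (0.0697) or 2 (0.061). Its call against 24 h ended without mock 24 h replicate 2 (0.139) or mock 72 h replicate 1 (0.0777) or 2 (0.062). No member was called between mock plants of 3 h or 24 h and those of 1 h in limma, with 0 of 6 called and 0 at an unadjusted p under 0.05 in both comparisons, where 44.1% and 38.4% of all tested genes were called. Leaving out mock 1 h replicate 2 or mock 3 h replicate 3 gave 1 called member between 3 h and 1 h.

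Ordered by mean level over the 12 groups, the members had different peaks. ZAT10 was highest 1 h after 10 cGy (14.2 CPM) and lowest in mock plants at 72 h (0.907 CPM). ZAT12 was highest 72 h after 100 cGy (10.3 CPM), where its SD was 9.89 CPM, and lowest in mock plants at 72 h. ZAT6 peaked 3 h after 10 cGy (7.89 CPM), ZAT11 1 h after 100 cGy (1.31 CPM), AZF2 72 h after 100 cGy (3.91 CPM) and AZF1 1 h after 10 cGy (2.2 CPM). Neighbours in these orders mostly overlapped. Of 11 neighbouring pairs the libraries were apart in 2 for ZAT10, in 1 each for ZAT12, ZAT6 and AZF1, and in 0 for ZAT11 and AZF2. The pair that was apart for AZF1 was 10 cGy at 1 h above 10 cGy at 72 h (1.44 CPM).

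Within groups, the 5 members other than AZF1 all lay on the same side of their group means in 17 of the 36 libraries. Over the 36 libraries, deviations from the group mean had a Pearson r of 0.81 between ZAT10 and ZAT12, 0.8 between ZAT10 and ZAT6, 0.8 between ZAT12 and AZF2 and 0.78 between ZAT12 and ZAT11. It was lower between ZAT12 and ZAT6 (0.55) and lowest among these 5 between ZAT6 and ZAT11 (0.38). AZF1 had r from -0.24 to 0.05 with the other 5 members. These r values are descriptions over 36 libraries that share their depth and library preparation with all other genes. All 6 members were above their group mean in 3 libraries, among them replicate 2 of 10 cGy at 1 h, and all were below it in 5, among them replicate 3 of 10 cGy and of 100 cGy at 1 h. ZAT12 deviated most, by 1.67 in replicate 2 and -2.28 in replicate 3 of 100 cGy at 72 h, and by 1.64 in replicate 1 of 100 cGy at 1 h. For ZAT10 the deviation in replicate 3 of 100 cGy at 72 h was -1.35.

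**Figure D3:**
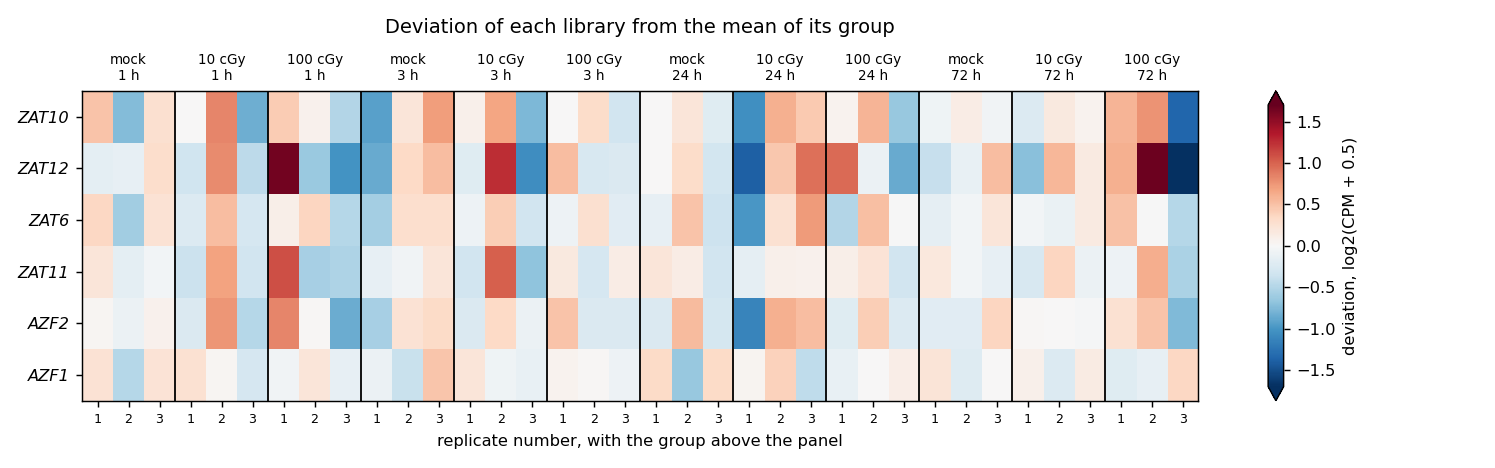
Deviation of each library from its group mean on the log2(CPM + 0.5) scale (colour) for the 6 genes (vertical) in the 36 libraries (horizontal, ordered by time, dose and replicate). Red is above and blue below the mean, and the 5 genes other than AZF1 are all of 1 colour in 17 of the 36 columns, as in replicate 3 of 100 cGy at 72 h, where ZAT12 was at -2.28 and AZF1 at 0.35 (colours end at the limits of the bar).

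The genes whose means over the 12 groups were most like each member were listed by Pearson r, again as a description. For ZAT10 they were BCB, a blue copper-binding protein gene (r = 0.97), NCED3, which codes for an enzyme of abscisic acid synthesis (0.96), and UCP5, a mitochondrial carrier gene (0.95). For ZAT12 they were AT3G22160 (0.97), the kinase gene AGC2-1 (0.95) and CML37, a calmodulin-like gene (0.95), and the within-group deviations of AGC2-1 also had r = 0.95 with those of ZAT12. For AZF2 they were NAC3 (0.96), the zinc-finger gene AT3G46080 (0.95) and CML37 (0.94), and for ZAT6 SPPL4 (0.94), COBL8 (0.93) and TI2 (0.93). For ZAT11 the first was AT3G08670 (0.96), with r = 0.11 for the within-group deviations, and for AZF1 it was AT3G48640 (0.97), with r = 0.09. These last pairs were alike in their group means and hardly in their replicates.

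Against mock, other genes of the same zinc-finger subfamily were called only at 1 h. Of 15 listed, 9 passed the filter, and at 1 h 2 were called higher and 0 lower after 10 cGy. Of all tested genes 13.6% were called higher and 11.8% lower. An unadjusted p under 0.05 in limma was found for 5 of the 9. AT3G53600 averaged 3.95 ± 0.876 CPM after 10 cGy and 0.167 ± 0.16 CPM in mock plants at 1 h (SD, n = 3 each), a difference of 2.75 ± 0.69 (adjusted p = 0.0037, limma) that held in all alternatives. After 100 cGy it averaged 2.59 ± 3.46 CPM, with a difference of 1.56 ± 0.69 (adjusted p = 0.127). ZAT7 averaged 1.36 ± 0.816 CPM after 10 cGy and 0.495 ± 0.314 CPM in mock plants (adjusted p = 0.0182), but the call ended without mock replicate 2 (0.0666) or 3 (0.108) or 10 cGy replicate 2 (0.184), and with only the libraries of that time (0.0538). ZAT7 and its neighbour AT3G46080 are close copies, so how reads were split between them is uncertain. After 100 cGy at 1 h, ZF3 was called higher (0.66, adjusted p = 0.0311) and AT2G28200 lower (-0.27, adjusted p = 0.0344) in limma. In that comparison 10.3% of all tested genes were called higher and 7.37% lower. The ZF3 call ended without mock replicate 2 (0.163) or 100 cGy replicate 1 (0.109), 2 (0.0681) or 3 (0.0515), and with the replicate number as a block (0.0597). The AT2G28200 call ended without mock replicate 1 (0.0668), 2 (0.113) or 3 (0.0699) or 100 cGy replicate 1 (0.205) or 2 (0.0682), and with the block (0.0522). The list median at 1 h was 0.13 after 10 cGy and 0.2 after 100 cGy. The 10 cGy count was 4 without 10 cGy replicate 1. No gene of the list was called at 3, 24 or 72 h, where 0.599% to 12.4% of all tested genes were called. Of the 9, 0 to 3 had an unadjusted p under 0.05 in limma. However, 3 of the list were called 72 h after 100 cGy without replicate 3 of that group.

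Signalling genes known to act before ZAT factors included MKK9, the member of that list with the greatest called differences. Of 13 kinases, calmodulin-binding activators and other regulators, 5 were higher 1 h after 10 cGy and 4 higher and 1 lower after 100 cGy, with list medians of 0.15 and 0.14. Of all tested genes 13.6% were higher after 10 cGy, and 10.3% were higher and 7.37% lower after 100 cGy. MKK9, a MAP kinase kinase gene, averaged 9.75 ± 1.44 CPM after 10 cGy and 4.5 ± 0.236 CPM in mock plants (difference 1.03 ± 0.21, adjusted p = 0.000556), and 9.46 ± 1.82 CPM after 100 cGy (0.98 ± 0.21, adjusted p = 0.00125). SR1, a calmodulin-binding activator gene, was higher after 100 cGy by 0.29 (adjusted p = 0.00531), and EICBP.B of the same family after 10 cGy by 0.24 (adjusted p = 0.00347), both in all alternatives. Each was also called at the other dose. There the SR1 call after 10 cGy ended under 2 alternatives and the EICBP.B call after 100 cGy under 8. MPK3, whose kinase is known to phosphorylate ZAT10, had a difference of -0.38 after 100 cGy (adjusted p = 0.0216), a call that ended without mock replicate 1 (0.16) or 100 cGy replicate 2 (0.0515) or 3 (0.134). The 10 cGy count was 2 without mock 1 h replicate 2 or 10 cGy replicate 2 and 3 without 10 cGy replicate 1. The 100 cGy count was 2 without mock 1 h replicate 1 and 3 without mock replicate 2 or 100 cGy replicate 2 or 3. EICBP.B was also higher 24 h after 10 cGy, by 0.25 (adjusted p = 0.0186), but was not called without mock replicate 1 (0.114) or 10 cGy replicate 1 (0.0733) or 3 (0.0773), with median-ratio scaling (0.091) and with only the libraries of that time (0.224). At 72 h after 10 cGy 4 were higher, where 4.72% of all tested genes were, and MKK4 (0.39, adjusted p = 0.00294) was so in all alternatives. That count was 1 without mock 72 h replicate 2 and 2 without 10 cGy replicate 1 or 2. At 3 h after 100 cGy 4 were higher, by 0.18 to 0.28, where 10.6% of all tested genes were higher, but the count was 1 without mock 3 h replicate 1, 2 without mock 3 h replicate 2 and 0 without 100 cGy replicate 2. It was also 0 with only the 9 libraries of that time, and with median-ratio scaling, which moved the median of all genes by -0.11.

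Of 7 corepressor genes 1 was called at 1 h at each dose, where 13.6% and 10.3% of all tested genes were higher at the lower and higher dose. This was TPR3, which was higher by 0.35 after 100 cGy (adjusted p = 0.00615, in all alternatives) and by 0.29 after 10 cGy (adjusted p = 0.0195). The 10 cGy call of TPR3 ended without mock replicate 1 (0.0714) or 3 (0.0552) or 10 cGy replicate 1 (0.0869), and the 100 cGy count was 2 without mock replicate 2. With only the 9 libraries of that time the counts were 3 and 2 at the lower and higher dose. WSIP2, another gene of this list, was higher 72 h after 10 cGy by 0.23 (adjusted p = 0.0102), but not called with only the libraries of that time (0.0805) or without mock replicate 2 (0.105). The list medians were -0.06 and -0.02 at the lower and higher dose. Of 11 reported targets and outputs 9 were tested, and 1 h after 10 cGy 2 were higher and 2 lower, where 13.6% of all tested genes were higher and 11.8% lower. FSD1, an iron superoxide dismutase gene, averaged 582 ± 32.5 CPM after 10 cGy and 437 ± 49.2 CPM in mock plants (0.42, adjusted p = 0.000653). ICE1, a regulator of cold response, had a difference of -0.26 (adjusted p = 0.00152), and both calls held in all alternatives. CAD1, the phytochelatin synthase gene that ZAT6 is reported to act on, was higher by 0.54 (adjusted p = 0.00637, and 0.0644 without mock replicate 2). CAD1 was also higher 72 h after 10 cGy (0.54, adjusted p = 0.0174) and FSD1 3 h after 10 cGy (0.34, adjusted p = 0.0439). The CAD1 call of 72 h ended with only the libraries of that time (0.0535) or without mock replicate 2 (0.145) or 10 cGy replicate 1 (0.0652) or 3 (0.052), and the FSD1 call of 3 h ended under 8 alternatives, among them without each library of both groups other than 10 cGy replicate 3 (0.0528 to 0.301). DREB1A, a cold response factor gene, had a difference of -0.67 (adjusted p = 0.0247, and 0.101 without mock replicate 2 or 0.192 without 10 cGy replicate 3). That call also ended with 0.1 CPM added (0.0546) and with only the libraries of that time (0.0746). None of the 9 was called 1 h after 100 cGy in limma, where 10.3% of all tested genes were higher and 7.37% lower. Of the 9, 3 had an unadjusted p under 0.05, and 1 was called without mock replicate 1 or 100 cGy replicate 2. LTI78, a cold and drought response gene, was higher 3 h after 100 cGy by 1.05 (adjusted p = 0.00788, and 0.0804 without 100 cGy replicate 2). The list medians at 1 h were -0.05 after 10 cGy and 0.05 after 100 cGy.

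A list of 20 other early stress genes held many called genes at 1 h. It was chosen with earlier results of these data known, so its counts are given as a description. After 10 cGy 16 of 20 were higher and 0 lower, with a list median of 1.29, where 13.6% of all tested genes were higher. After 100 cGy 8 were higher and 0 lower, with a median of 0.87, where 10.3% were higher. WRKY18, a defence transcription factor gene, averaged 11.1 ± 4.05 CPM in mock plants, 58.1 ± 5.84 CPM after 10 cGy and 84.4 ± 20.7 CPM after 100 cGy (SD, n = 3 each). CAF1a, a deadenylase gene, averaged 5.9 ± 1.16 CPM in mock plants, 18.1 ± 6.97 CPM after 10 cGy and 20.0 ± 2.27 CPM after 100 cGy. TCH3, a touch-induced calmodulin-like gene, averaged 106 ± 20.4 CPM in mock plants, 231 ± 30.7 CPM after 10 cGy and 197 ± 25.5 CPM after 100 cGy. All 3 were called at both doses in every alternative, as was ERF5, with a difference of 0.85 after 100 cGy (adjusted p = 0.00445). ERF6 (1.09, adjusted p = 0.000338) was called in every alternative after 10 cGy. With 1 library left out the 10 cGy count ran from 12, without 10 cGy replicate 2, to 17. The 100 cGy count was 4 without mock replicate 2, 100 cGy replicate 1 or 100 cGy replicate 2. At 3 h the count was 0 after 10 cGy, where 1.49% of all tested genes were called. Of the 20, 5 had an unadjusted p under 0.05 in limma there. After 100 cGy the count was 4, where 10.6% of all tested genes were higher. With only the 9 libraries of that time all 4 calls ended, with adjusted p-values from 0.0571 (WRKY48) to 0.119 (TCH4), and 1 other gene of the list was called. The 4 became 1 without mock 3 h replicate 1 or 2 or 100 cGy replicate 2, 2 without 100 cGy replicate 3, 9 without mock 3 h replicate 3, and 1 with median-ratio scaling. In the same comparison 3 of 4 rosette markers were called lower, where 1.86% of all tested genes were, with differences of -0.23 for RBCS1A (adjusted p = 0.0282), -0.27 for RCA (0.0112) and -0.25 for CA1, a carbonic anhydrase gene (0.00751). Their part in the other differences of that time was not tested. The shares of all genes in this comparison depend on the scaling: of the genes called, 85% were higher, and 33.1% with median-ratio scaling. None of the 20 was called at 24 or 72 h, where 0.599% to 9.38% of all tested genes were called. Of the 20, 0 to 7 had an unadjusted p under 0.05 in limma. Without replicate 3 of 100 cGy at 72 h 3 were called, and without mock 72 h replicate 3 it was 1.

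**Figure D4:**
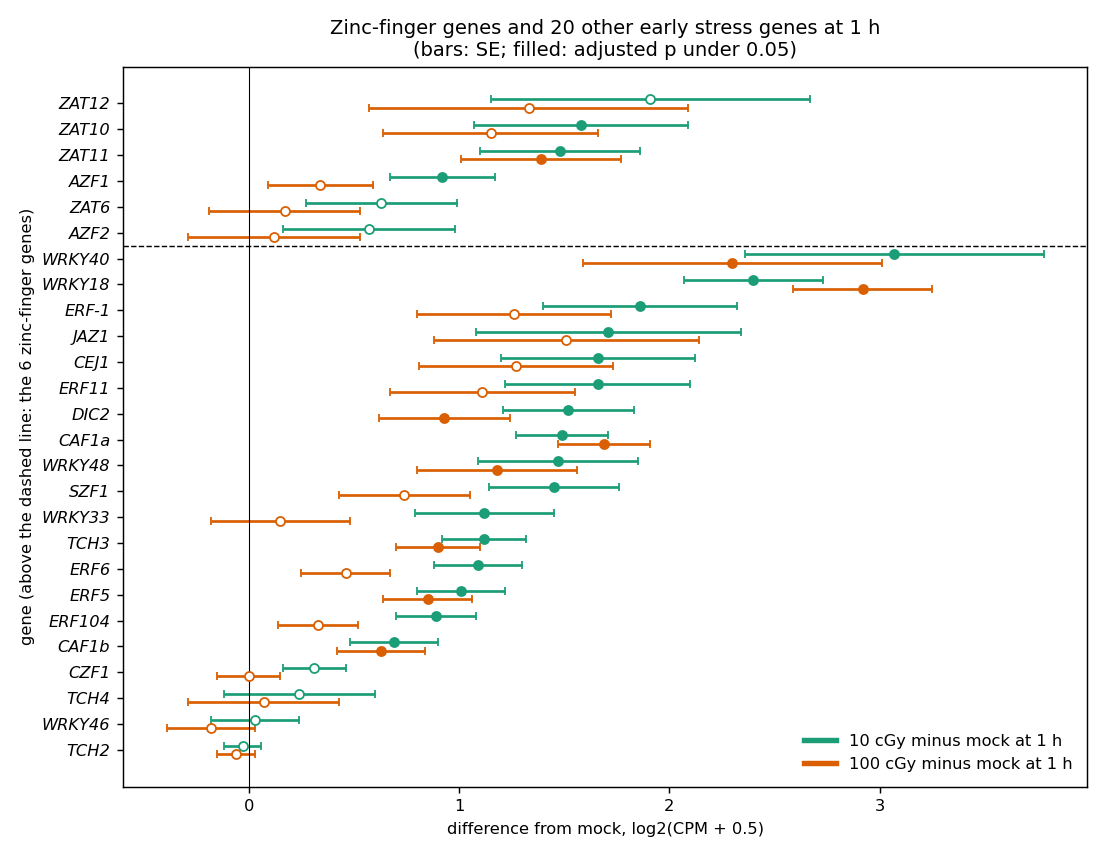
Difference from mock at 1 h on the log2(CPM + 0.5) scale (horizontal axis, SE bars) for the 6 zinc-finger genes and 20 other early stress genes (vertical axis), with 10 cGy and 100 cGy in separate colours and filled points past an adjusted p of 0.05. Of the 20, 16 were called after 10 cGy and 8 after 100 cGy, and 3 and 1 of the 6 zinc-finger genes. The list was chosen with earlier results of these data known, and ZAT11 passed the filter only through irradiated libraries. AZF1 would not have passed on mock libraries alone.

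The same early stress genes also moved with the ZAT members within groups. The median r of their within-group deviations was 0.66 with ZAT10, and 13 of 20 genes had r above 0.5, against 6.72% of all tested genes. The median was 0.53 with ZAT6, 0.5 with AZF2, 0.49 with ZAT11 and 0.46 with ZAT12. With AZF1 the median was 0.19, and 1 of 20 genes, TCH3, had r above 0.5. These values are descriptions over the same 36 libraries, for a list chosen with earlier results of these data known.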

How the data were processed

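RNA was extracted from whole rosettes and sequenced after poly(A) selection with a directional kit, per the labels' protocols. The submitters' processing notes name Trimmomatic 0.32, STAR 2.5.2b, RSEM 1.2.28 and the TAIR10 build, without their roles. The authors deposited a table of CPM values and a table of their natural log, both per gene, and the CPM table was used for all values. It holds 33977 genes in 36 libraries, and 0 columns were left unused. Library depth was recovered from the CPM step, but only 88.8% to 90.6% of values came out whole (tolerance 0.02), so no count test was run. Genes with at least 1 CPM in at least 3 libraries (18875) were tested with limma 3.58.1 in R 4.3.3 on log2(CPM + 0.5), with an intensity trend, 1 mean per group, all 36 libraries (24 residual df), two-sided tests and Benjamini-Hochberg adjustment over all tested genes of a contrast. A gene is called at an adjusted p under 0.05. Fold changes are on the log2(CPM + 0.5) scale, which understates the change of low genes. The fit was tested on simulated normal values with 1 SD per gene for all groups. That check did not cover a spread that differs between groups. For ZAT12 the SD on the log2(CPM + 0.5) scale was 0.264 in mock plants at 1 h and 2.05 after 100 cGy at 72 h. The members and the gene lists were chosen with earlier results of these data known. Genes named besides the members are, for each list and contrast with mock, at most 4 called genes with the smallest p, and for each member the 3 genes with the highest r over 12 group means. Alternatives were an added 0.1 or 1 CPM, no filter, no intensity trend, median-ratio scaling, a replicate block, only the 9 libraries of a time, and leaving out each library. Same-numbered libraries deviated together in all 3 pairs only between mock and 100 cGy at 24 h (r of 0.248, 0.341 and 0.31), where 0 of 6 members were called with or without the block. Their use on the gene lists was chosen after seeing the data. Sequences and gene structures are from RefSeq TAIR10.1. The deposited tables hold no coordinates, so none were converted, and loci were matched by identifier (32548 of 33977 genes).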

Additional observations from a re-analysis of the deposited data

Results flagged for a closer look

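AZF1 was the only member called in a test of a dose effect between neighbouring times. In the other 5 such comparisons uncalled member estimates ran from -1.77 to 2.46, so a member that was not called may still differ. The effect of 10 cGy was 0.92 at 1 h and -0.31 at 3 h, and the interaction term, 3 h minus 1 h, was -1.23 ± 0.36 on the log2(CPM + 0.5) scale (adjusted p = 0.018, limma, n = 3 libraries per group). All 3 libraries of 10 cGy were above the mock mean at 1 h and none at 3 h. AZF1 would not have passed the filter on mock libraries alone, so these values are given as a description. Over the alternatives tried the AZF1 term ranged from -1.72 to -0.93 and the adjusted p from 0.00966 to 0.0744. Leaving out 1 library gave 0 to 2 called members in this comparison.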

How the results depend on the processing

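The number of called members changed as follows when 1 library was left out. It was 1 to 3 for 10 cGy against mock at 1 h (3 with all libraries), 0 to 1 for 100 cGy against mock at 1 h (1 with all), 0 to 2 for 100 cGy against mock at 72 h, 0 to 3 for 100 cGy against 10 cGy at 72 h and 0 to 1 for mock 3 h against 1 h (0 with all for these 3). It was 0 to 2 for mock 72 h against 1 h and 1 to 2 against 24 h (2 with all), and 0 to 2 for the effect of 10 cGy at 3 h minus 1 h (1 with all). With 1 CPM added before the logarithm, the count for 10 cGy against mock at 72 h was 1 and not 0, through AZF1 (0.55, adjusted p = 0.044). The cause was not tested. Under the other alternatives AZF1 was not called there, and its adjusted p in limma reached 0.232. Every other count of called members stayed within 1.5 times its value under the alternatives listed above, and none of the 15 member differences recomputed under them changed sign. Median-ratio scaling moved the median of all genes by -0.11 for 100 cGy against mock at 3 h and by -0.13 for 100 cGy against 10 cGy at 3 h. For 100 cGy against mock it changed 2346 called genes, 85% of them higher, to 1434, 33.1% of them higher. For 100 cGy against 10 cGy it changed 2372 called genes, 93.5% higher, to 921, 33.7% higher. Over all times replicate numbers did not pair the libraries: same-numbered libraries of a time had deviations with a median r of -0.0246, against 0.0112 for libraries with different numbers. With the replicate number as a block, ZAT12 in mock plants at 72 h against 24 h had a difference of -1.83 with an adjusted p of 0.0472, and no other call of a member changed. In the other gene lists the block ended 6 of the calls tested again, among them ZF3 and AT2G28200 1 h after 100 cGy. The 3 libraries per group and the wide spread of these genes limit what can be called, and ZAT11 in mock plants lies at the counting limit.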
